A study of Mus musculus with 6 samples.

Results

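The 10 genes described here, *Alox12b*, *Aloxe3*, *Alox12*, *Alox15*, *Abca12*, *Cers3*, *Elovl4*, *Ugcg*, *Pnpla1* and *Sptlc2*, make, modify or move the lipids of the epidermal permeability barrier, or belong to the lipoxygenase family of which barrier enzymes are part. They were chosen by gene symbol from a list of barrier lipid genes, and all 10 were found among the 17784 genes of the expression table. The RNA came from corneal epithelial cells of *Prrx1-CreERT;Ptch1 f/f* mice and of control mice, with 3 samples from each, and the comparison asks how these genes responded in the epithelium when *Ptch1*, the receptor that restrains Hedgehog signaling, was ablated in the mesenchyme beneath it. Both groups received 3 doses of tamoxifen and were followed over an interval given as 2 months. The labels give an age of 10 weeks, and the paper places induction slightly earlier. The epithelial sheet was released with EDTA. The Cre driver, *Prrx1-CreERT*, becomes active on tamoxifen in keratocytes, corneal endothelium and other ocular mesenchyme, so the epithelium itself was not the intended site of deletion. Samples are named control 1 to 3 and *Ptch1*-ablated 1 to 3, and nothing says how many animals each holds.

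Skin keeps water in with sheets of ceramides, cholesterol and fatty acids between dead cornified cells. Ceramides of great chain length are built from a sphingoid base and an elongated fatty acid, esterified with linoleate, glucosylated, packed into lamellar granules and oxidized by lipoxygenases before they are bound to the protein envelope of the cornified cell. Loss of several of these steps causes ichthyosis. The healthy cornea is a wet, non-keratinized surface that does not form a cornified layer, and cornification in this tissue is regarded as a change towards skin.

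Of the 10 genes, 4 rose in *Ptch1*-ablated epithelium with an adjusted p of 0.05 or less and 1 fell, a threshold that 7.61% of all tested genes passed upward and 6.41% downward. *Alox12b* and *Elovl4* rose by more than the 2-fold needed for a call, *Cers3* and *Ugcg* rose by less, and *Alox12* fell. *Sptlc2*, *Alox15* and *Pnpla1* did not pass the test. *Aloxe3* and *Abca12* were too low to be tested with the rest. Calls, which need both the adjusted p and a 2-fold change, were made upward for 2.34% of all tested genes, downward for 0.892% and in either direction for 3.23%.

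The promoters of *Alox12b* and *Elovl4*, the members that were called, and of *Alox12*, the member that fell, are shown because these genes carry the contrast within the list. Each sequence is the 250 bases before the annotated start, in gene orientation, from RefSeq's annotation of build GRCm38.p6, which differs from the mm9 build that the submitters' processing notes name. The capitals mark CACCC, the core of sites bound by Krüppel-like factors, and in *Alox12b* also the reverse complement of GGGTGTGG, a longer form bound by KLF4. The *Alox12b* sequence lies at chr11:69156822-69157071 on the plus strand, the *Elovl4* sequence at chr9:83806306-83806555 on the minus strand, and the *Alox12* sequence at chr11:70255371-70255620 on the minus strand.
Alox12b: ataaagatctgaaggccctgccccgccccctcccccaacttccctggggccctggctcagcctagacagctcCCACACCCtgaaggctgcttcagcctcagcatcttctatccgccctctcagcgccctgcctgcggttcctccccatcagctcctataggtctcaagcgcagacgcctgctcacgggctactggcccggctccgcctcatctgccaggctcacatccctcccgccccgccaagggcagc
Elovl4: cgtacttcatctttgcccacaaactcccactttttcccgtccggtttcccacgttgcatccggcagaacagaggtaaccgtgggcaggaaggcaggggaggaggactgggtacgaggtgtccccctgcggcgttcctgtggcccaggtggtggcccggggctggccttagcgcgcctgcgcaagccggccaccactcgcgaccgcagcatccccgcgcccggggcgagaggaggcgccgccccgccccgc
Alox12: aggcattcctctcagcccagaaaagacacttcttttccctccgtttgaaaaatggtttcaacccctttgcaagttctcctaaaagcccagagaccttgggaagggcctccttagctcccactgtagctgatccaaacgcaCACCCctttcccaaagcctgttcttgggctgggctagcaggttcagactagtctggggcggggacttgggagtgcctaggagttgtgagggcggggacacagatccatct
RefSeq windows, 300 bases each with 50 after the start, were found for 8 of the 10 members, and 5 motifs were searched on both strands. CACCC was in 6 of the 8 windows and in 57.5% of 32851 windows of all genes, so it was common everywhere. GGGTGTGG was in 1 of the 8, that of *Alox12b*, where it begins 178 bases before the start and overlaps the CACCC, and in 3.56% of all windows. TGANTCA, the AP-1 motif, was in 0 of the 8 and in 7.81% of all windows. AACCGGTT, bound by grainyhead-like factors, was in 0 of the 8 and 0.146% of all. The direct repeat bound by PPAR factors was in 0 of the 8 and 0.0396% of all. These are matches of letters in short windows.

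Levels are given as TPM (reads scaled for transcript length and for depth within a sample). Normalized counts are expected counts scaled to a common library size. Fold changes, standard errors (SE) and adjusted p values come from edgeR's quasi-likelihood test across 12999 genes with Benjamini-Hochberg adjustment. Expected counts summed to between 20296741 and 20625813 per sample, so that a floor of 3 counts lay between 0.145 and 0.148 CPM, counting error alone considered. *Krt12*, the keratin of corneal epithelium, stood between 37107 and 49487 TPM in all 6 samples. *Ptch1* had 7.31, 9.70 and 10.2 TPM in control 1, 2 and 3 and 5.28, 6.33 and 7.01 in *Ptch1*-ablated 1, 2 and 3 (log2 fold change -0.51, adjusted p = 0.0401), which does not test deletion in the keratocytes. *Ptch1*-ablated 1 stood apart. Among the ablated samples it had the highest value for 82.2% of the 304 genes called up, against 40.8% of all tested genes. Values without it are given where they change a call. In bulk RNA, fewer cells of a type and less RNA per cell cannot be told apart.

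At the entry to ceramide synthesis the difference was small. *Sptlc2*, a subunit of serine palmitoyltransferase, which starts sphingolipid synthesis, had 24.6, 24.5 and 27.3 TPM in control 1, 2 and 3 and 32.6, 28.6 and 30.3 TPM in *Ptch1*-ablated 1, 2 and 3. The groups did not overlap, yet the gene missed the threshold (log2 fold change 0.30, SE 0.085, adjusted p = 0.0542). It passed with DESeq2 (adjusted p = 0.0193).

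*Cers3*, the ceramide synthase that takes the longest fatty acids, was the most abundant member in ablated epithelium. It had 38.2, 36.8 and 41.6 TPM in control 1, 2 and 3 and 64.6, 51.7 and 47.8 TPM in *Ptch1*-ablated 1, 2 and 3. Every ablated sample was above every control sample, with *Ptch1*-ablated 1 furthest up. It rose by 45.3% (log2 fold change 0.54, SE 0.14, adjusted p = 0.0450) and fell short of 2-fold. The adjusted p rose above 0.05 without control 1 (0.101), control 2 (0.157), control 3 (0.0907) or *Ptch1*-ablated 2 (0.0761), with the direction kept.

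*Elovl4* elongates fatty acids to the lengths that *Cers3* uses. Its level was low, at 0.58, 0.77 and 0.74 TPM in control 1, 2 and 3 and 5.61, 2.57 and 3.90 TPM in *Ptch1*-ablated 1, 2 and 3. All 3 ablated samples were well above the controls, and the lowest was *Ptch1*-ablated 2. Mean normalized counts were 19.6 ± 2.46 (SD, n = 3) in controls and 118 ± 49.1 (SD, n = 3) in ablated samples, a 5.99-fold increase (log2 fold change 2.58, SE 0.34, adjusted p = 0.00916). The call was lost in 1 of the 6 fits that left out a sample, that without control 2 (adjusted p = 0.0570). In that fit only 59 genes of all were called, against 420 with every sample.

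*Ugcg*, glucosylceramide synthase, prepares ceramides for storage in lamellar granules. It had 3.35, 2.43 and 2.79 TPM in control 1, 2 and 3 and 4.89, 4.56 and 4.18 TPM in *Ptch1*-ablated 1, 2 and 3. The groups did not overlap and the ablated samples lay close together. It rose by 63.2% (log2 fold change 0.71, SE 0.18, adjusted p = 0.0410). That p was lost without any single sample other than control 1, at 0.0517 to 0.141.

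*Pnpla1*, the enzyme that attaches linoleate to the ceramide, had 2.56, 1.87 and 2.11 TPM in control 1, 2 and 3 and 1.80, 1.91 and 1.71 TPM in *Ptch1*-ablated 1, 2 and 3. The groups overlapped (log2 fold change -0.24, SE 0.19, adjusted p = 0.417).

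*Abca12*, the transporter that loads glucosylceramides into lamellar granules, had 0, 1 and 0 expected counts in control 1, 2 and 3 and 64, 13 and 9 in *Ptch1*-ablated 1, 2 and 3. It was almost unread in controls, and *Ptch1*-ablated 1 held most of its reads. The sum of 86 counts against 1 gives a ratio of 86.2 with a 95% counting interval from 15.1 to 3445, which covers counting error only. Without *Ptch1*-ablated 1 the ablated samples held 22 counts. Its mean in ablated samples was 0.36 TPM. In a fit with no filter, where 1.73% of 17743 genes were called up, it was called (log2 fold change 6.02, SE 1.24, adjusted p = 0.0249), and that fold depends on the prior count.

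The lipoxygenases moved in different directions. *Alox12b*, which oxidizes the linoleate of acylceramides, had 2.04, 0.32 and 0.92 TPM in control 1, 2 and 3 and 11.6, 7.83 and 4.02 TPM in *Ptch1*-ablated 1, 2 and 3. The groups did not overlap, and both were widely spread, control 2 being lowest and *Ptch1*-ablated 1 highest. Mean normalized counts were 24.0 ± 19.8 (SD, n = 3) and 177 ± 92.6 (SD, n = 3), a 7.35-fold increase (log2 fold change 2.88, SE 0.62, adjusted p = 0.0278). With 46, 7 and 20 expected counts in control 1, 2 and 3, *Alox12b* passed the filter only with the ablated samples, where it was high. The filter thus favored an upward call. The call was lost without control 2 (adjusted p = 0.0944), control 3 (0.0788), *Ptch1*-ablated 1 (0.0512) or *Ptch1*-ablated 2 (0.0585), while the log2 fold change stayed between 2.44 and 2.88 in these fits.

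*Aloxe3* encodes the partner that acts on the product of *Alox12b* and lies next to it on chromosome 11. It had 8, 5.21 and 4 expected counts in control 1, 2 and 3 and 17, 8 and 10 in *Ptch1*-ablated 1, 2 and 3. Counts this low leave the difference poorly measured. The summed counts of 35 against 17 gave a ratio of 2.06 with a 95% counting interval from 1.13 to 3.93, which covers counting error only. In the fit with no filter it did not pass (log2 fold change 1.07, adjusted p = 0.221).

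*Alox12*, an arachidonate lipoxygenase first known from platelets, was the most abundant member in controls. It had 47.2, 49.7 and 53.4 TPM in control 1, 2 and 3 and 24.7, 34.3 and 39.4 TPM in *Ptch1*-ablated 1, 2 and 3. The groups did not overlap, and *Ptch1*-ablated 1, highest for each member that rose, was lowest here. It fell by 33.1% (log2 fold change -0.58, SE 0.13, adjusted p = 0.0304). The adjusted p was 0.0731, 0.105 and 0.0797 without control 1, 2 and 3 and 0.0609 without *Ptch1*-ablated 2. RSEM assigned it fractions of reads in all 6 samples, so it shared reads with other genes. Of 7 platelet markers in the table, 4 were tested and *Ppbp* alone was called, at 0 to 0.31 TPM in controls and 67.0, 6.35 and 10.3 TPM in *Ptch1*-ablated 1, 2 and 3, while *Gp1bb*, *Itga2b* and *Gp1ba* had log2 fold changes of 0.23 (adjusted p = 0.129), -0.02 (0.930) and 0.00 (0.997). At an unadjusted p under 0.05, 2 of the 4 were up and 0 down, with no share over all genes given to set beside them. The part of these markers in the result for *Alox12* was not tested.

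*Alox15*, which oxidizes arachidonate and linoleate, had 4.57, 9.06 and 13.0 TPM in control 1, 2 and 3 and 5.54, 6.0 and 16.4 TPM in *Ptch1*-ablated 1, 2 and 3. The ranges of the groups overlapped (log2 fold change 0.08, SE 0.36, adjusted p = 0.893), and the sign turned without control 1 (-0.15) or *Ptch1*-ablated 3 (-0.38). *Alox12e*, an epidermal lipoxygenase gene that lies between *Alox12* and *Alox15* on chromosome 11, varied with it from sample to sample. *Alox12e* had 17.6, 34.6 and 45.3 TPM in control 1, 2 and 3 and 16.2, 19.4 and 60.8 TPM in *Ptch1*-ablated 1, 2 and 3. Its ratio to *Alox15* stayed between 2.92 and 3.85 while each gene spanned more than 3.5-fold, a pattern picked out after the values were seen. *Alox15* was assigned fractions of reads in all 6 samples, while the expected counts of *Alox12e* (393, 750 and 979 in control 1, 2 and 3 and 363, 417 and 1287 in *Ptch1*-ablated 1, 2 and 3) were whole in each, so no fraction of a read shared with *Alox15* was assigned to it.

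**Figure D1:**
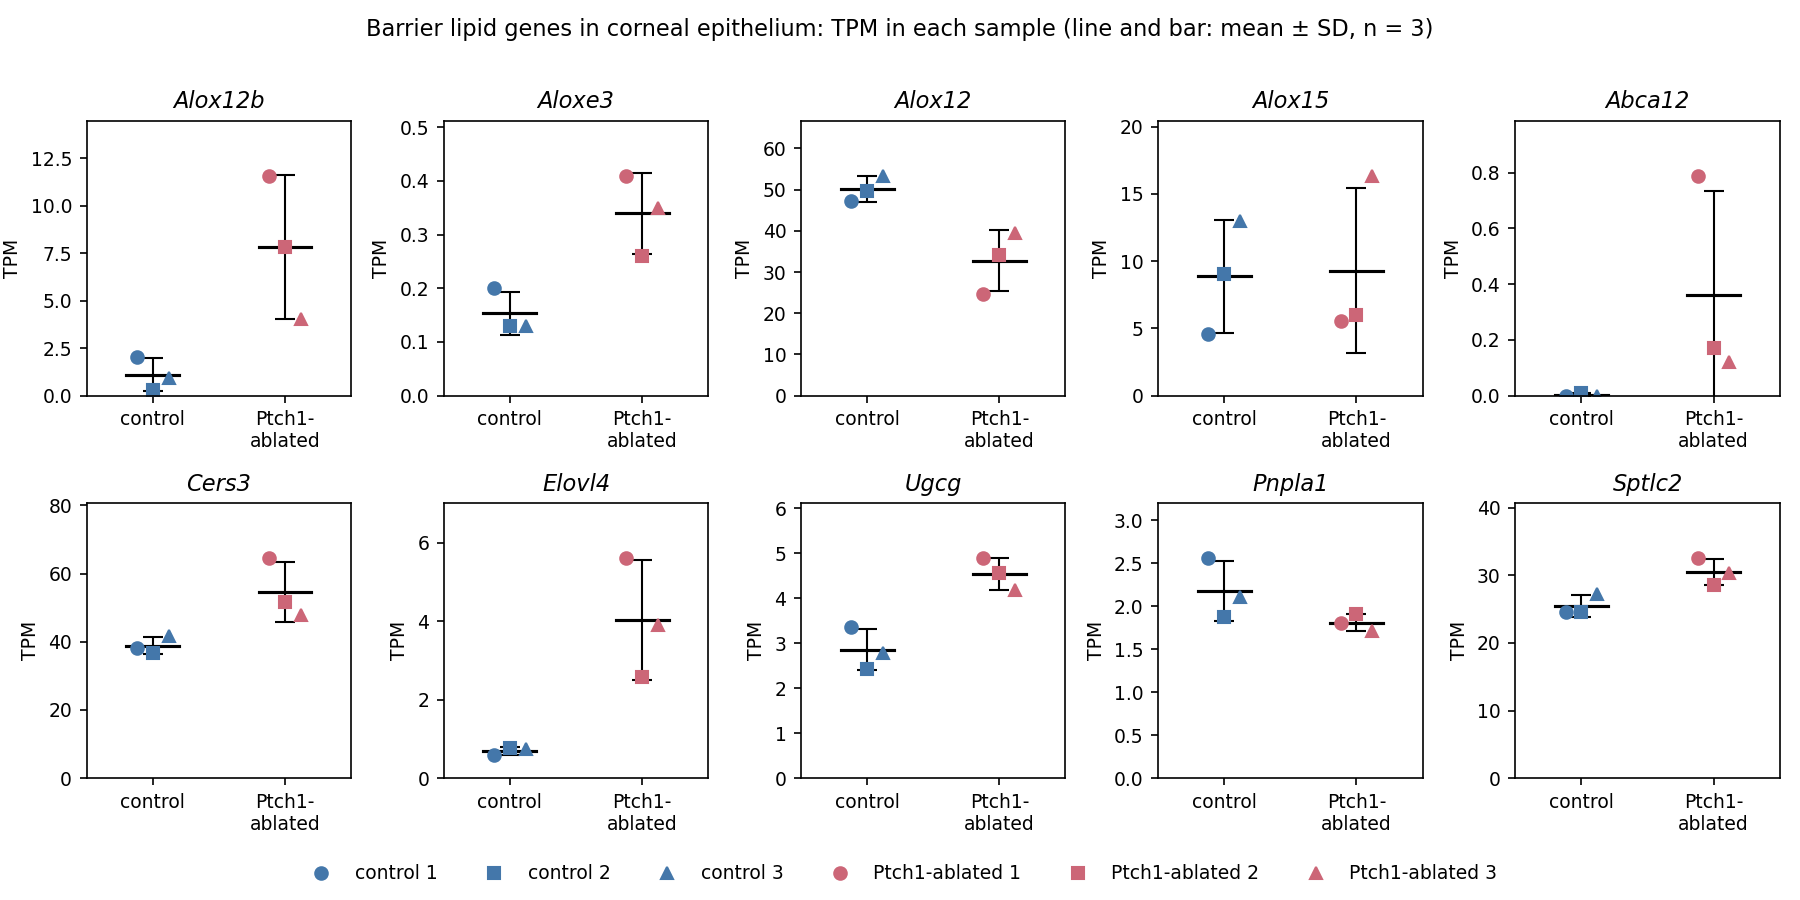
TPM (vertical axis, linear from 0, scaled for each gene) of the 10 genes in 3 control and 3 *Ptch1*-ablated samples, with a point per sample and the mean ± SD in black. *Elovl4*, *Alox12b*, *Cers3* and *Ugcg* are higher in every ablated sample, *Alox12* is lower in every ablated sample, *Alox15* and *Pnpla1* overlap, and *Abca12* stays below 0.8 TPM.

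Groups did not overlap in normalized counts for 5 of the 8 tested members upward and 1 downward, against 19.7% upward, 20.3% downward and 39.9% in all for the tested genes. The median log2 fold change was 0.42 over the 8 tested members and -0.01 over all tested genes. In level, *Alox12*, *Cers3*, *Sptlc2*, *Alox15* and *Ugcg* led in that order in controls, each separated from the next by TPM ranges that did not overlap. *Ugcg* overlapped with *Pnpla1* and *Pnpla1* with *Alox12b*. In ablated samples *Cers3* led, *Alox12* and *Sptlc2* overlapped behind it, and *Alox12b* moved ahead of *Ugcg* and *Pnpla1* in mean level, its range overlapping with that of *Ugcg*.

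Within their families the members made up different shares, computed after the values were seen and compared by an exact two-sided permutation test, for which 0.1 is the smallest p that 3 samples against 3 allow. *Cers3* made up 24.2% ± 1.40 (SD, n = 3) of the summed TPM of 6 ceramide synthase genes in controls and 33.6% ± 4.36 (SD, n = 3) in ablated samples (exact p = 0.1, adjusted over 4 shares 0.133). *Cers2*, which makes ceramides with shorter chains, remained the highest of the family, with 80.3, 83.3 and 84.8 TPM in control 1, 2 and 3 and 73.0, 72.2 and 85.9 TPM in *Ptch1*-ablated 1, 2 and 3. *Elovl4* made up 0.209% ± 0.0276 (SD, n = 3) of the summed TPM of 6 elongase genes in controls and 1.34% ± 0.470 (SD, n = 3) in ablated samples (exact p = 0.1, adjusted 0.133). *Elovl1* supplied most of that sum, at 197 to 201 TPM in controls and 176 to 186 TPM in ablated samples. *Alox12b* went from 1.31% ± 1.31 (SD, n = 3) to 11.3% ± 8.08 (SD, n = 3) of the summed TPM of 7 lipoxygenase genes (exact p = 0.1, adjusted 0.133), and the share of *Alox12* from 54.5% ± 9.32 (SD, n = 3) to 41.0% ± 8.62 (SD, n = 3), with overlapping groups (exact p = 0.2, adjusted 0.2). *Alox8*, the neighbour of *Alox12b* on the other side from *Aloxe3*, had 0.35 to 0.71 TPM in controls and 0.41 to 0.62 TPM in ablated samples (log2 fold change 0.02, adjusted p = 0.970).

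**Figure D2:**
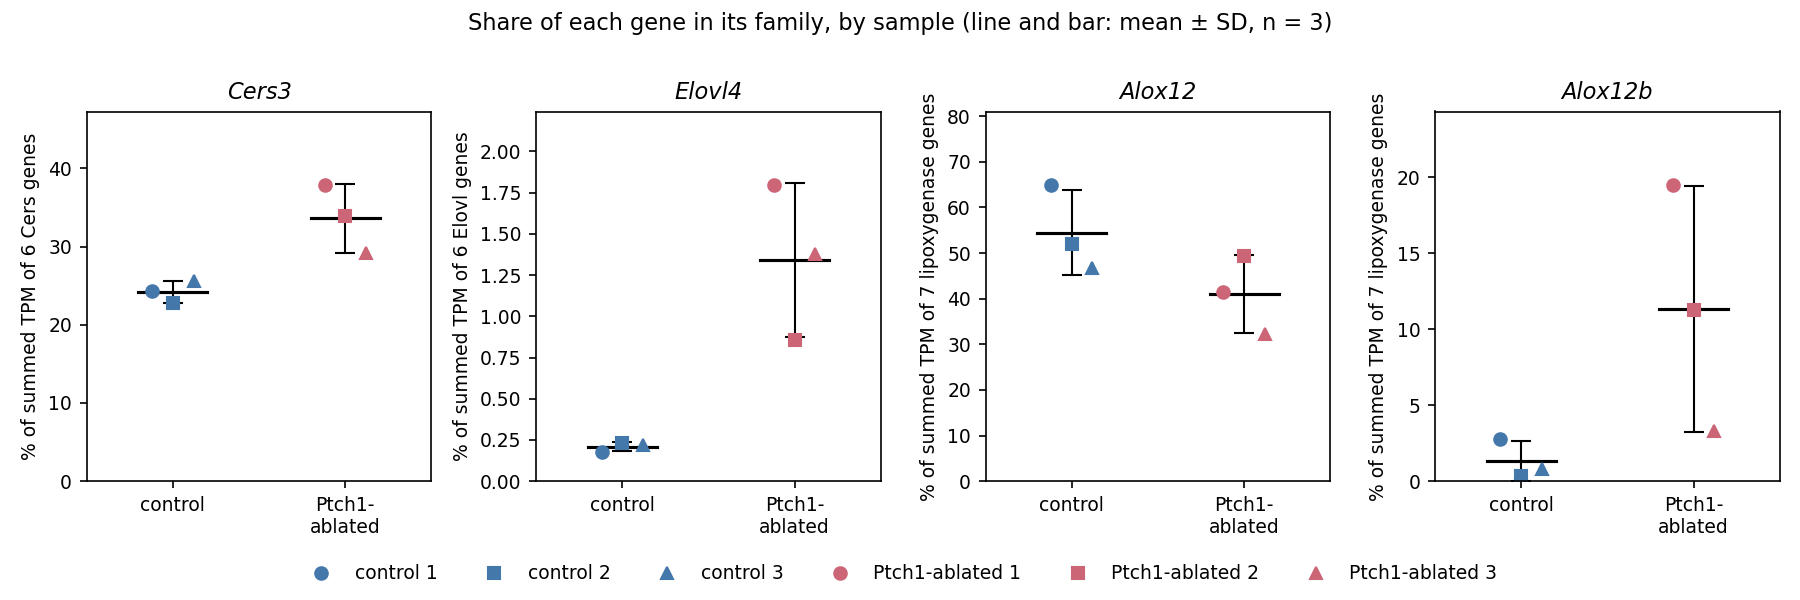
Share of *Cers3*, *Elovl4*, *Alox12* and *Alox12b* in the summed TPM of their gene family (vertical axis, %, linear from 0, scaled for each gene), with a point per sample and the mean ± SD in black. *Cers3*, *Elovl4* and *Alox12b* are higher in every ablated sample than in any control sample, and the values of *Alox12*, which overlap, run from 32.2% to 64.8%.

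Other genes of barrier lipid metabolism mostly stayed below the threshold. Of 73 in the table, 63 were tested, 2 were called up and 0 down by edgeR, DESeq2 and limma-voom alike in number. The 2 were 3.17% of those tested, near the 2.34% of all tested genes called up. At edgeR's adjusted p alone 6 were up (9.52%) and 4 down (6.35%), near the 7.61% and 6.41% of all tested genes. At an unadjusted p under 0.05 the numbers were 11 and 17, with no share over all genes given to set beside them. The median log2 fold change of the 63 was -0.06. The called genes were *Fabp5*, the fatty acid binding protein of skin, and *Nipal4*, which is mutated in ichthyosis. With 7.36, 4.26 and 13.1 expected counts in control 1, 2 and 3, *Nipal4* passed the filter only through the ablated samples. The filter thus favored its upward call. *Fabp5* had 252, 220 and 205 TPM in control 1, 2 and 3 and 2196, 861 and 527 TPM in *Ptch1*-ablated 1, 2 and 3 (log2 fold change 2.47, SE 0.51, adjusted p = 0.0249). Its ablated samples differed among themselves by more than the controls did from the lowest of them. *Nipal4* was much lower, at 0.23, 0.14 and 0.42 TPM in control 1, 2 and 3 and 1.55, 1.27 and 0.91 TPM in *Ptch1*-ablated 1, 2 and 3 (log2 fold change 2.31, SE 0.44, adjusted p = 0.0204). Both calls were lost without control 1 (adjusted p = 0.0682 for *Fabp5*, 0.0674 for *Nipal4*) or control 2 (0.105 and 0.0881), and that of *Fabp5* also without control 3 (0.0727).

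Below 2-fold, *Degs1*, the desaturase that completes the ceramide backbone (log2 fold change 0.78), *Acsl4*, which activates fatty acids (0.82), and *Asah1*, a lysosomal enzyme that breaks down ceramide (0.36), rose with adjusted p from 0.0145 to 0.0199. *Kdsr*, which acts just after serine palmitoyltransferase (-0.33), *Tecr* and *Hacd2* of the fatty acid elongation cycle (-0.35 and -0.49) and *Dgat2*, which makes triglycerides (-0.48), fell with adjusted p from 0.0118 to 0.0374. All 7 of these adjusted p values rose above 0.05 without control 2, at 0.0651 to 0.137. Those of *Asah1*, *Kdsr*, *Tecr* and *Hacd2* did so without control 1 (0.0613, 0.0624, 0.0996 and 0.0700) and, with *Degs1*, without control 3 (0.0607, 0.0617, 0.0647, 0.0572 and 0.0534). Without *Ptch1*-ablated 1 that of *Tecr* was 0.0733, without *Ptch1*-ablated 2 those of *Asah1* and *Kdsr* were 0.0529 and 0.0541, and without *Ptch1*-ablated 3 those of *Kdsr* and *Tecr* were 0.0531 and 0.0830. The directions were kept in these fits. Besides *Fabp5* and *Tecr*, the most abundant of these genes were *Scd2*, *Gltp* and *Psap*, with log2 fold changes of -0.26, 0.00 and -0.11 that did not pass the test (adjusted p = 0.147, 0.991 and 0.354).

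Cornification genes were called up in 42.5% of those tested, against 2 of the 8 tested members and 2.34% of all tested genes, differences that were not tested. Of 66 listed cornification genes in the table, 40 were tested, 17 were called up and 0 down by edgeR, and 26 were too low to test. Some of the 17, *Flg*, *Rptn*, *Sprr1b* and *Sprr3* among them, passed the filter only through the ablated samples, where they were high, so the filter favored upward calls. With at least 10 counts in every sample, 33 were tested, and 12 were called up and 0 down. DESeq2 and limma-voom called 0 down as well, and 2 fell at edgeR's unadjusted p under 0.05, for which no share over all genes is given. Their median log2 fold change was 0.60. *Cldn1*, a tight junction protein needed for the skin barrier, had 15.3, 15.0 and 13.9 TPM in control 1, 2 and 3 and 61.9, 58.8 and 55.5 TPM in *Ptch1*-ablated 1, 2 and 3 (log2 fold change 2.04, SE 0.10, adjusted p = 0.000946). *Cnfn*, a component of the cornified envelope, had 18.9, 10.9 and 12.8 TPM in control 1, 2 and 3 and 807, 321 and 320 TPM in *Ptch1*-ablated 1, 2 and 3 (log2 fold change 5.07, SE 0.49, adjusted p = 0.00436). *Sprr1b* (10.28), *Krt16* (6.80), *Sprr1a* (4.63) and *Flg* (2.85) were also called up, with *Flg* at no more than 0.10 TPM in any sample. *Dsg1a*, a desmosomal cadherin, and *Krt1*, a keratin of the upper epidermis, fell by less than 2-fold (-0.55 and -0.64). The adjusted p of *Dsg1a* rose above 0.05 without control 1, 2 or 3 (0.0558, 0.0762 and 0.0550), and that of *Krt1* without any single sample other than *Ptch1*-ablated 3 (0.0815 to 0.142). The highest log2 fold change of a tested member was 2.88, that of *Alox12b*, below those of *Cnfn*, *Sprr1a*, *Sprr1b* and *Krt16*. It was also below those of *Sprr3* (8.23), *Dmkn* (4.70), *Crct1* (4.11), *Rptn* (3.70) and *Lce3a* (3.28), which were called up too. This ranking depends in part on the filter. *Sprr1b*, *Sprr3* and *Rptn* passed it only through the ablated samples. The member *Abca12*, with a log2 fold change of 6.02 in the fit with no filter, did not pass and was left out.

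**Figure D3:**
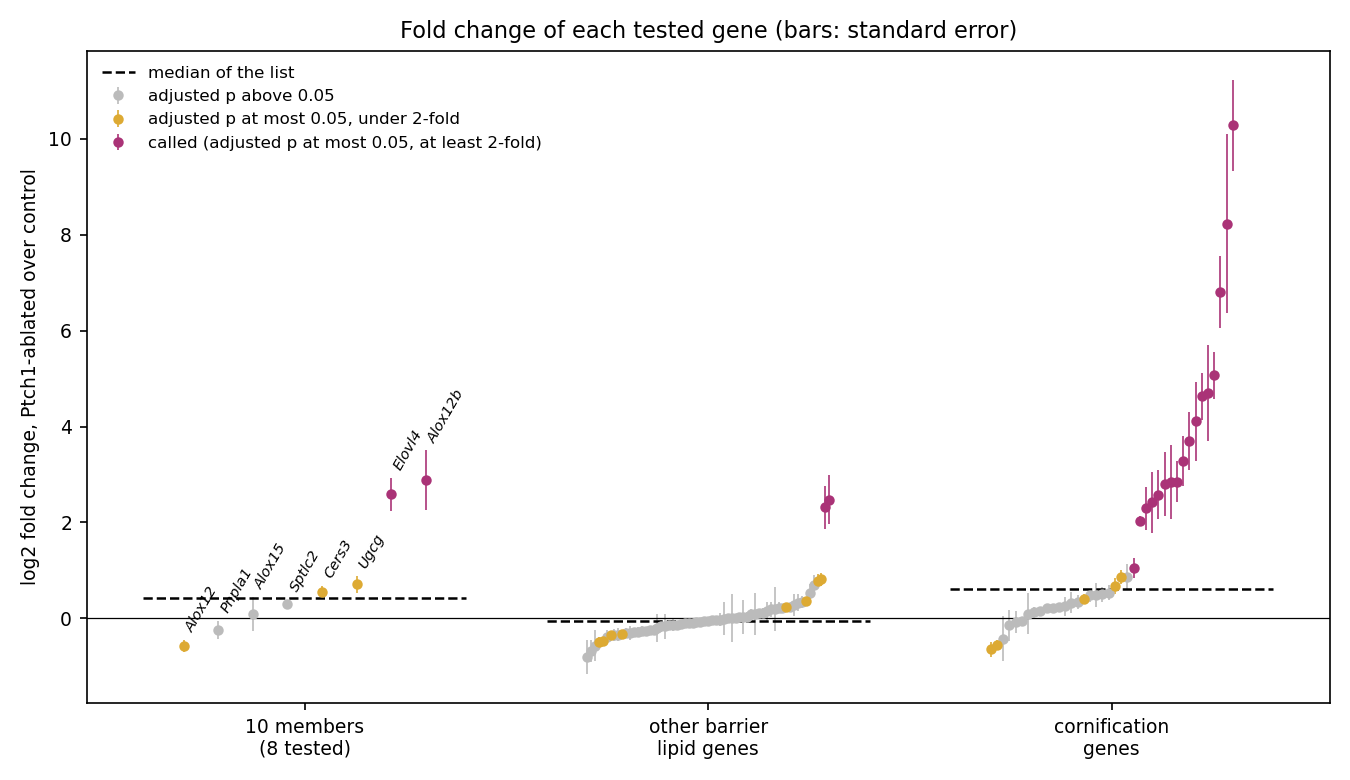
Log2 fold change, *Ptch1*-ablated over control, of each tested gene among the barrier lipid members, the other barrier lipid genes and the cornification genes, ordered within each list, with SE bars and the list's median as a dashed line. Purple points pass an adjusted p of 0.05 and 2-fold (2 of 8, 2 of 63 and 17 of 40), yellow points pass the adjusted p only, and the medians are 0.42, -0.06 and 0.60.

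Both orders of the ablated samples seen in the called members were also seen among the 17 called cornification genes. The order of *Alox12b*, from *Ptch1*-ablated 1 through 2 to 3, was that of 11 of them, and the order of *Elovl4*, with 3 ahead of 2, was that of 4, *Ivl*, *Sbsn*, *Sprr1a* and *Sprr1b*. Both orders begin with *Ptch1*-ablated 1, the highest ablated sample in 82.2% of all 304 genes called up. The share of each order among those 304 is not given here, so a shared order is not particular to cornification. As log2(normalized count + 1) minus the control mean, the median of the 17 called cornification genes was 3.93, 3.25 and 2.07 in *Ptch1*-ablated 1, 2 and 3. Over all 40 tested cornification genes the median was 0.995, 0.561 and 0.372. *Alox12b* was at 3.79, 3.16 and 2.14 and *Elovl4* at 3.07, 1.89 and 2.41 in the same samples. These 2 members and the 17 genes were all selected as called up, so high values in ablated samples were built into both sides. *Cers3* and *Ugcg* had the order of *Alox12b* on a smaller scale, at 0.84, 0.45 and 0.27 and at 0.88, 0.72 and 0.53. *Alox12* was at -0.91, -0.51 and -0.37, furthest from the control mean in the sample where the others were highest. Among the ablated samples, all 4 members that rose were highest in *Ptch1*-ablated 1, as were 74.9% of the 989 genes up at the adjusted p and 40.8% of all tested genes. Without *Ptch1*-ablated 1, 1 of the 2 called members and 14 of the 17 called cornification genes were called. Among all tested genes, those whose values in the 6 samples differed least from *Alox12b* were *Tubb3*, *Nipal1* and *Iglon5*, with root mean square differences of 0.39, 0.44 and 0.49 on the log2 scale. The closest cornification gene was *Lce3a*, at rank 9 (0.69). For *Elovl4* they were *Pabpc1l*, *Gpnmb* and *Akr1b8* (0.20, 0.22 and 0.25), and the closest cornification gene was *Sbsn*, at rank 12 (0.39).

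**Figure D4:**
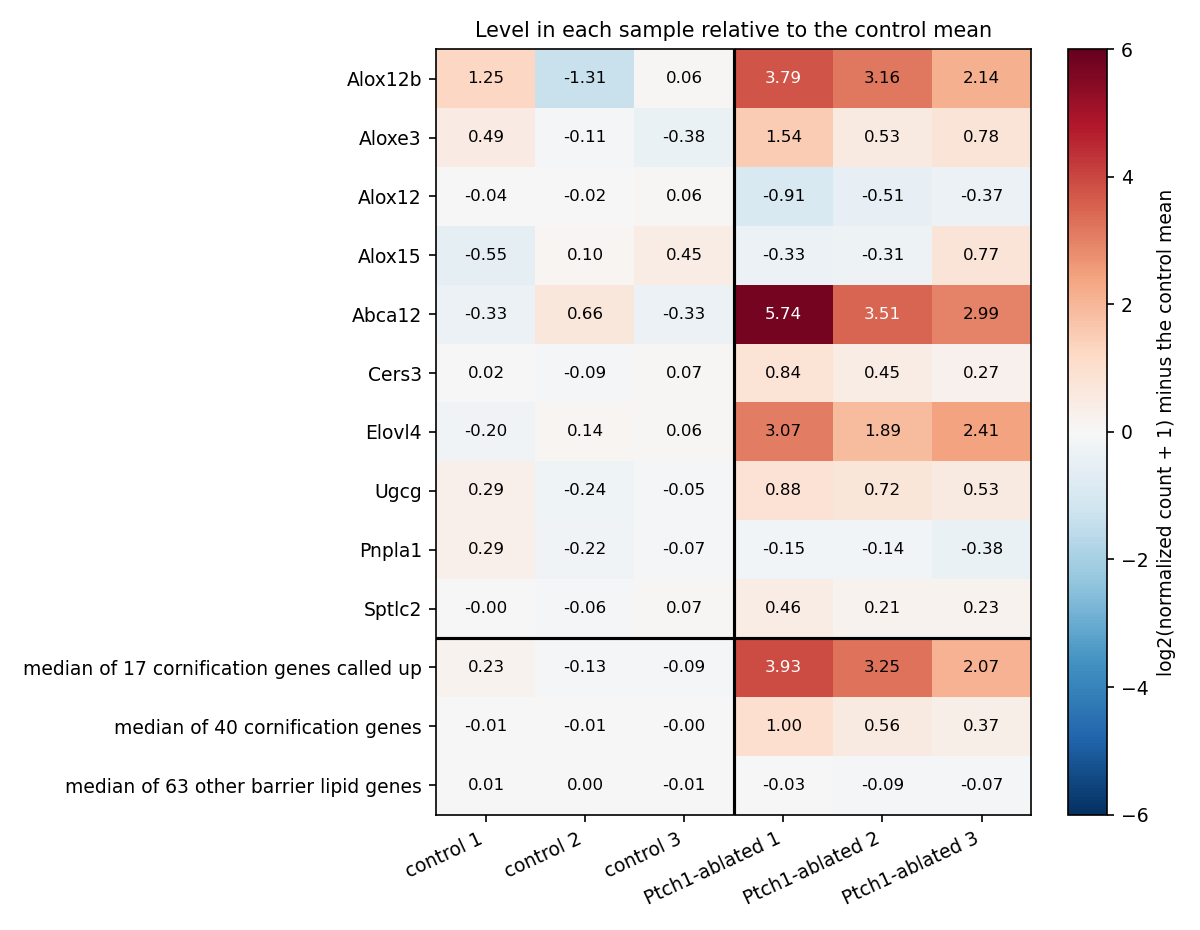
Color and number give log2(normalized count + 1) minus the control mean in each of the 6 samples (columns) for the 10 members (upper rows) and as medians of the tested genes of 3 lists (lower rows). *Alox12b* runs 3.79, 3.16 and 2.14 across *Ptch1*-ablated 1, 2 and 3 beside 3.93, 3.25 and 2.07 for the called cornification genes, both selected as called up. All 40 tested cornification genes have medians of 0.995, 0.561 and 0.372, and the other barrier lipid genes stay between -0.09 and 0.01.

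Markers of other cells are given as summed TPM, and their part in these results was not tested. Where edgeR called 0 markers of a list, the numbers up and down at its unadjusted p under 0.05 were 3 and 1 for conjunctiva, 1 and 0 for immune cells, 2 and 0 for meibomian and sebaceous glands, 0 and 1 for stroma and 0 and 0 for red cells. No share over all genes is given to set beside these numbers. DESeq2 called 1 up for conjunctiva and 1 up for the glands, and limma-voom 0 for all 5 lists. Conjunctival markers (11 in the table, 7 tested, 0 called up or down) summed to 1434 to 2383 TPM in controls and to 4769, 2222 and 2965 TPM in *Ptch1*-ablated 1, 2 and 3, mostly *Krt13*, *Krt4* and *Krt19*, while the goblet cell genes *Muc5b*, *Tff1* and *Tff3* had at most 3 counts in every sample. Of the 7, 5 had a log2 fold change above 0 and 2 below. *Krt8* alone passed edgeR's adjusted p, downward (log2 fold change -0.91, adjusted p = 0.0139). Immune markers (14 in the table, 3 tested, 0 called) summed to 121 to 159 TPM in controls and to 653, 154 and 180 TPM in *Ptch1*-ablated 1, 2 and 3, with *S100a9* at 373 TPM in *Ptch1*-ablated 1. *Adgre1*, *Lyz2*, *Cd3e*, *Epx* and *Timd4* had at most 3 counts in every sample. Most of the sum in controls was *Itgam* and *Cd68*, at 67.0 to 101 and 45.3 to 50.1 TPM. *Ptprc* had at most 9 counts in any sample. Meibomian and sebaceous gland markers (9 in the table, 5 tested, 0 called) summed to 58.2 to 64.7 and 65.4 to 71.1 TPM, with *Pparg* and *Mc5r* at no more than 3 counts. Epidermis markers (9 in the table, 5 tested, *Flg* called) summed to 24.3 to 27.6 and 28.5 to 30.1 TPM, with *Krt2*, *Hrnr* and *Lce1a1* at no more than 3 counts. Platelet markers summed to 30.7 to 33.6 and 43.9 to 102 TPM. Stroma markers (11 in the table, 5 tested, 0 called) summed to 10.3 to 58.8 TPM in controls, with control 3 highest, and 8.96 to 13.5 TPM in ablated samples, with *Kera* at no more than 3 counts. Red cell markers summed to 7.83 to 9.66 and 6.97 to 10.9 TPM. Corneal epithelium markers (12, all tested) summed to 107812 to 115667 and 97323 to 117285 TPM, and *Krt14* alone of them was called (log2 fold change 2.81, adjusted p = 0.00769).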

How the data were processed

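Bulk RNA-seq of corneal epithelial cells from 3 *Ptch1*-ablated and 3 control samples was used. The authors aligned reads with Bowtie2 (2.2.5) to build mm9 and quantified them with RSEM (1.2.12), per the submitters' processing notes. The deposited expected counts are RSEM's estimated counts per gene without depth scaling. The deposited TPM values are scaled by the authors for length and depth within each sample. The 6 FPKM columns and 6 columns of group means were not used. The labels name an Illumina kit, and the methods describe rRNA depletion and DNA nanoballs.

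Groups and replicate numbers came from the labels. Because RSEM splits shared reads, 39.4% of non-zero values carried fractions (tolerance 0.005), and expected counts were rounded. Of 17784 genes, 12999 passed filterByExpr and were then tested with edgeR 4.0.16 (quasi-likelihood, TMM factors 0.960 to 1.03) in R 4.3.3. SE is the log2 fold change divided by the root of the F statistic. Normalized counts are CPM on scaled library sizes times their mean. Replicates differed by more than sampling noise (chi-square per degree of freedom 10.1 to 37.8). The labels do not say whether the samples came from separate animals, although the methods call them biological replicates, so p values measure the spread between these samples.

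The members and lists were chosen with earlier results of these data known. Named were all members, at most 6 genes per other list with the smallest p among those past the adjusted p, the 5 most abundant other barrier lipid genes, the 3 genes most like each called member, *Ptch1* and *Krt12*. Outside this rule, *Hacd2*, *Dsg1a*, *Krt1*, the family members beside *Cers3*, *Elovl4* and the lipoxygenases, the closest cornification genes, *Ivl* and single marker genes were named after their values were seen. So were *Sprr3*, *Dmkn*, *Crct1* and *Rptn*. Alternatives were DESeq2 1.42.0, limma-voom (limma 3.58.1), other size factors and filters, no minimum fold change, a replicate block, each sample left out, and limma on log2(TPM + 1) or log2(TPM + 0.1). The procedure was tested on simulated data. Some genes of the lists are not reported here.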

Additional observations from a re-analysis of the deposited data

How the results depend on the processing

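Of the 10 members, 2 were called. The count was 1 with at least 10 counts in every sample, where *Alox12b* was not tested, and 5 with no minimum fold change, and leaving out single samples gave 0 to 3. The 2 other barrier lipid genes called became 1 with at least 10 counts in every sample, 10 when the fold was not limited, 1 with limma on log2(TPM + 1), 1 on log2(TPM + 0.1) and 0 on log2(TPM + 1) without a filter, and 0 to 3 when single samples were left out. The 17 cornification genes became 10 with limma-voom, 11 and 8 with limma on log2(TPM + 1) with and without a filter, and 5 to 19 when single samples were left out, the lowest without control 2. Over all genes, 420 calls became 1822 without the fold limit, with 54.3% up against 72.4%, and 234 and 168 with limma on log2(TPM + 1) with and without a filter, and 59 to 430 when single samples were left out, again lowest without control 2. The cause was not tested.

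Among members the direction turned in some fits only for *Alox15* (0.08), to -0.15 without control 1 and -0.38 without *Ptch1*-ablated 3, the range without single samples being -0.38 to 0.33. *Gltp* (0.00) turned to -0.010 with upper-quartile factors, -0.0054 without a filter, -0.014 without control 1 or control 3, -0.047 without *Ptch1*-ablated 1, with up to 0.030 without the other samples, and -0.039 in each TPM fit. The adjusted p of *Cers3*, *Ugcg* and *Alox12* rose above 0.05 in the TPM fit without a filter (0.0725, 0.0792 and 0.0810), as did those of *Fabp5*, *Kdsr*, *Tecr*, *Cebpb* and *Grhl3* (0.0588, 0.0680, 0.0594, 0.0654 and 0.0694). Same-numbered samples did not deviate together (correlations of deviations 0.10, -0.037 and 0.011), and control 2 correlated best with *Ptch1*-ablated 3 (0.19), so the numbers were not taken as pairs. With the replicate block, 2 members, 2 other barrier lipid genes, 16 cornification genes and 390 genes in all were called. Depth left 2 members, 10 other barrier lipid genes, 26 cornification genes and 3 barrier regulators below the filter.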

Other observations

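Regulators of the epidermal barrier, a separate list of 27 genes, held 24 tested genes, of which 0 were called, against 3.23% of all tested genes. At the adjusted p alone 4 rose (16.7%) and 0 fell, against 7.61% and 6.41% of all tested genes (edgeR's quasi-likelihood test). DESeq2 and limma-voom also called 0, and at edgeR's unadjusted p under 0.05 there were 6 up and 1 down, with no share over all genes given. The median log2 fold change was 0.07. *Vdr*, the vitamin D receptor, had 14.4, 16.6 and 14.1 TPM in control 1, 2 and 3 and 20.9, 22.5 and 21.8 TPM in *Ptch1*-ablated 1, 2 and 3 (log2 fold change 0.57, SE 0.086, adjusted p = 0.0118). *Prdm1*, a repressor active in terminally differentiating keratinocytes, had mean normalized counts of 1874 ± 58.0 (SD, n = 3) in controls and 2687 ± 245 (SD, n = 3) in ablated samples (0.52, SE 0.079, adjusted p = 0.0119). *Cebpb*, with a log2 fold change of 0.65, and *Grhl3*, with 0.56, also rose (adjusted p = 0.0390 and 0.0480), and both encode factors of epidermal differentiation. The adjusted p of *Cebpb* rose above 0.05 without any single sample other than control 1 (0.0550 to 0.132), that of *Grhl3* without any single sample (0.0507 to 0.169), and that of *Prdm1* without control 2 (0.0683). In all 4 genes every ablated sample was above every control sample, which their selection by the adjusted p makes likely. Of the 24 tested regulators, groups did not overlap for 8 upward and 2 downward, against 19.7% and 20.3% of all tested genes.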
